A study of Mus musculus with 6 samples.

Results

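Lrrc15 and the small leucine-rich proteoglycans (SLRPs) are proteins of the connective tissue that share leucine-rich repeats, and their transcripts were followed in the left ventricles of mice exposed to caffeine *in utero*. The group holds 10 genes of the 43629 in the count table, chosen by mouse symbol: Lrrc15 and the SLRP genes Dcn, Bgn, Lum, Fmod, Ogn, Omd, Prelp, Aspn and Podn. Lrrc15 entered because it was among the genes called different in these same hearts, and the others were added as relatives in name and structure, so the values of Lrrc15 are given as a description with no test. RNA came from 6 one-year-old male CD-1 mice, an outbred stock. In 3 mice the dam had been injected i.p. each day with vehicle (normal saline), and in 3 with caffeine, an antagonist of adenosine receptors, at 20 mg/kg. The exposure is given as embryonic day (E) 6.5 to 9.5 in most of the labels, and 1 field ends it at E10.5. The labels name no transgene or deletion, each library is 1 ventricle, and the dam of each mouse is not given, so hearts of the same litter may be among them and p-values measure only the spread between these libraries.

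SLRPs are secreted proteins that sit on collagen fibrils and set their spacing and thickness, and many but not all carry chains of chondroitin, dermatan or keratan sulfate. Several also bind growth factors, such as TGF-β, or receptors of the innate immune system when they are released from the matrix. In the heart they are made mainly by fibroblasts. Lrrc15 belongs to another branch: it is a membrane protein with leucine-rich repeats outside the cell, is found on fibroblasts and stromal cells, and is known as a gene that TGF-β can induce.

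Total counts ran from 7613011 to 10483101 per library, with the 3 caffeine libraries the smallest. The 10 most abundant genes took 17.07% to 20.07% of the counts in the vehicle libraries and 22.59% to 25.95% in the caffeine libraries, so values are given as CPM (read counts relative to library size, with TMM factors), and levels of different genes are compared only as CPM per kilobase of exon. The labelled tissue was checked against marker lists. The 9 cardiomyocyte markers summed to between 65100 and 78000 CPM. The 5 atrial markers summed to between 4.2 and 5.19 CPM, with Sln, Myl7 and Bmp10 each below 0.4 CPM in every heart. In bulk tissue, fewer cells of a type and less RNA per cell cannot be told apart, which applies to every level below.

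The genes lie in a few clusters in the GRCm38 genome (GENCODE annotation). Lrrc15 (ENSMUSG00000052316) stands alone on the minus strand of chromosome 16 from 30269302 to 30283256. Aspn (ENSMUSG00000021388, chromosome 13 from 49544443 to 49567565), Omd (ENSMUSG00000048368, from 49582462 to 49592822) and Ogn (ENSMUSG00000021390, from 49608046 to 49624501) follow each other on the plus strand, with gaps of 14.9 and 15.2 kb and no other protein-coding gene wholly between them. Ecm2, a related matrix gene, ends 11.7 kb before Aspn. Dcn (ENSMUSG00000019929, chromosome 10 from 97479609 to 97518143) is followed after 47.0 kb by Lum (ENSMUSG00000036446, from 97565128 to 97572703), and then by Kera and Epyc. Prelp (ENSMUSG00000041577, minus strand of chromosome 1 from 133910304 to 133921414) is 115.8 kb from Fmod (ENSMUSG00000041559, from 134037254 to 134048277). Bgn (ENSMUSG00000031375) lies on chromosome X from 73483602 to 73495933, and Podn (ENSMUSG00000028600) on chromosome 4 from 108014791 to 108096445. Prelp shares 350 bases (9.68%) of its exons with the antisense gene Gm15851, and Aspn shares 7 bases with Cenpp, whose span on the opposite strand also holds Omd and Ogn. Without a stated strand setting, reads in those bases cannot be assigned to either gene with certainty. The other members share no exon base with another gene.

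RefSeq promoters of GRCm38.p6, each 300 bases from 250 before the transcription start, were found for 8 of the 10 genes, and Dcn and Lum had no entry. Of these, 3 are printed below from 5′ to 3′ on the strand of the gene: that of Lrrc15, the gene with the largest difference of the group, and those of Aspn and Ogn, genes of 1 cluster with opposite signs of fold change. Capitals mark exact matches, on either strand, to 5 short motifs: the TATA box (TATAAA), a TEAD site (GGAATG), an AP-1 site (TGACTCA), the SMAD-bound CAGA element (CAGACA) and the CCAAT box (CCAAT).
Lrrc15, chr16:30283205-30283504, minus strand: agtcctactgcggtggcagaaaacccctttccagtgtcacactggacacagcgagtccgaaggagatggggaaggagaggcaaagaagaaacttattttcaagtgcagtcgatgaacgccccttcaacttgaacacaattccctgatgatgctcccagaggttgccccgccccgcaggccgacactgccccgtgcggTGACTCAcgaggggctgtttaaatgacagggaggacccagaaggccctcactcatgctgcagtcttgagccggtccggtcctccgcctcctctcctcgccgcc
Aspn, chr13:49544193-49544492, plus strand: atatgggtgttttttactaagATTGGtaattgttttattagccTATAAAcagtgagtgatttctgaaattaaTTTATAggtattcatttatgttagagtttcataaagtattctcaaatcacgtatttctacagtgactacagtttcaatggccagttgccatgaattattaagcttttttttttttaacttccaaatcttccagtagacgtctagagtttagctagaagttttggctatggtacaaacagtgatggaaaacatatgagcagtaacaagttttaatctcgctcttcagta
Ogn, chr13:49607765-49608064, plus strand: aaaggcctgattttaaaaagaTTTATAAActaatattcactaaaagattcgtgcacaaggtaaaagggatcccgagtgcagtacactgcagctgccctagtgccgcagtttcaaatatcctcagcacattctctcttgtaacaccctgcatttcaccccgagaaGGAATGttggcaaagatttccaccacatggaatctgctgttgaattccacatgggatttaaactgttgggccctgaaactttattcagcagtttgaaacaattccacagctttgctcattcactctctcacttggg
The Lrrc15 window holds a single match, an AP-1 site that begins 53 bases before the start, and 5.20% of all 32851 promoters hold that motif. Ogn has a TEAD site 86 bases before the start, which 14.7% of promoters hold, and 2 overlapping TATA boxes on opposite strands, with a first base 229 and 227 bases before it. The RefSeq start used for Ogn lies upstream of its annotated gene start at 49608046, and 0 of its annotated transcripts begin at that RefSeq start. Aspn has TATA boxes 207 and 178 bases and a CCAAT box 229 bases before the start. TATA boxes were in 13.6% of all promoters, CAGA elements in 21% and CCAAT boxes in 37.4%. No motif was shared by Lrrc15 with Aspn or Ogn in these windows. The Aspn window was 31.0% G and C, that of Ogn 42.3% and that of Lrrc15 58.7%. Such matches are descriptions of letters and not of bound sites.

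In vehicle hearts Dcn, which encodes decorin, the SLRP that decorates collagen fibrils with a single chondroitin or dermatan sulfate chain, had the highest level, 94.6 ± 7.08 CPM per kb (SD, n = 3). Ogn (osteoglycin, also called mimecan) followed at 48.8 ± 4.38. Bgn (biglycan, the close relative of decorin with a pair of chain sites) at 38.5 ± 2.03 and Lum (lumican, a keratan sulfate SLRP) at 38.4 ± 3.32 CPM per kb could not be ordered, as their hearts overlapped. Aspn (asporin, a class I SLRP with an acidic N-terminus) was at 16.7 ± 1.66 and Prelp (a proline- and arginine-rich SLRP that binds heparan sulfate) at 13.1 ± 1.12. Lrrc15, at 7.23 ± 0.60 CPM per kb, lay below these 6 SLRPs and above Podn (podocan, 2.11 ± 0.63). Omd (osteomodulin, 0.55 ± 0.07) and Fmod (fibromodulin, 0.52 ± 0.07) were lowest and overlapped. With caffeine the order was the same for Dcn and from Aspn down to Fmod, while Bgn, Lum and Ogn lay at 46.5 ± 4.56, 45.8 ± 4.0 and 44.0 ± 6.48 CPM per kb, with all 3 overlapping. Fmod had between 8 and 20 reads per heart and Omd between 5 and 16, and counting alone would give them a coefficient of variation of 23.8% to 30.6%, beside 12.4% to 48.9% measured.

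**Figure D1:**
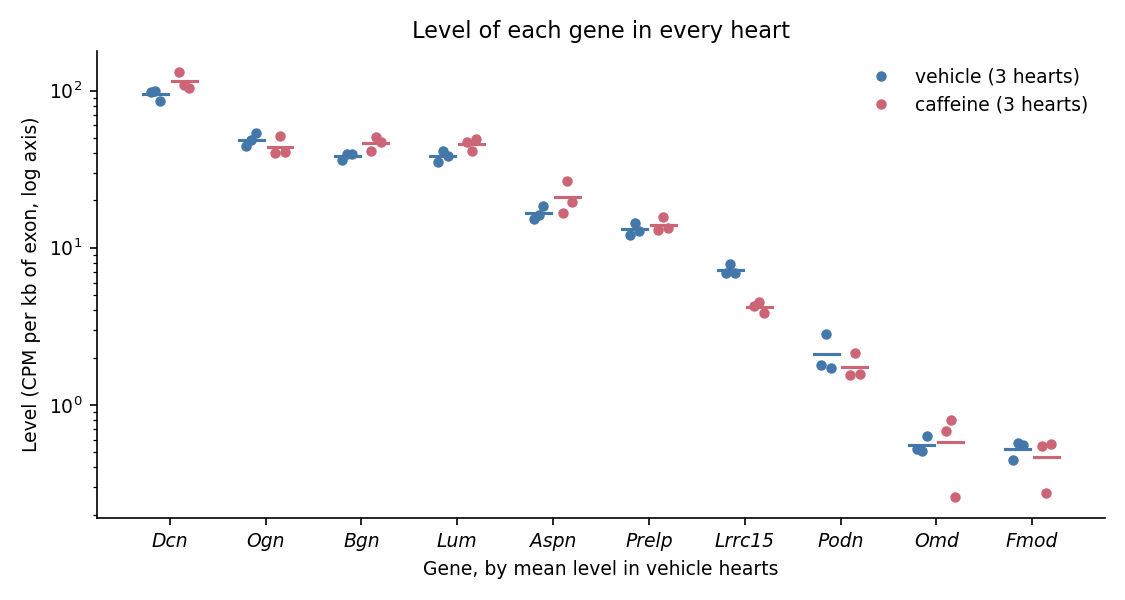
Level of the 10 genes in each heart, in CPM per kilobase of exon on a log axis, with a line at the mean of each group of 3 hearts. Lrrc15, chosen for being called lower in these same hearts, is at 6.86 to 7.93 in the vehicle hearts and 3.84 to 4.51 in the caffeine hearts. Every caffeine heart lay below every vehicle heart in 7.12% of all tested genes. Lum, Ogn, Aspn, Prelp, Podn, Omd and Fmod overlap.

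Lrrc15 was the member lower in every caffeine heart. It was at 36.4, 42.1 and 36.7 CPM in vehicle replicates 1 to 3, and at 22.7, 23.9 and 20.4 CPM in caffeine replicates 1 to 3. The highest caffeine heart was therefore below the lowest vehicle heart, as in 7.12% of all tested genes. Lrrc15 was chosen for being lower in these same hearts, so nothing is read from this gap. These values rest on 362 to 445 reads per vehicle heart and 162 to 212 reads per caffeine heart. The group means were 38.4 ± 3.21 and 22.3 ± 1.79 CPM (SD, n = 3 each). The log2 fold change of caffeine over vehicle was −0.78 (standard error 0.11, 95% interval −1.03 to −0.53), a level 0.58 times that of the vehicle hearts. The coefficient of variation was 8.35% with vehicle and 8.0% with caffeine. Lrrc15 entered the group for being past the thresholds used by the study (Benjamini-Hochberg adjusted p below 0.05 and a fold above 1.5) by the quasi-likelihood method of edgeR. It was 1 of 10 members called, against 0.107% of the 13092 genes tested, and the third by fold of the 3 genes called lower (0.0229% of those tested). Since that call chose the group, nothing is read here from the call or from the 95% interval, which comes from the same fit. Without vehicle replicate 2, caffeine replicate 1 or caffeine replicate 3 the log2 fold change was −0.71, −0.79 and −0.72, and it was no longer called.

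None of the 9 SLRP genes was called in either direction, where 0.084% of all genes were called higher and 0.0229% lower. With edgeR's quasi-likelihood test 3 of them had an unadjusted p below 0.05, compared with 8.82% of all genes tested, and 0 were called by the exact test (0.718% of all genes), DESeq2 (0.512%), the likelihood ratio test or limma-voom, with the replicate number as a block (0.306%) or with no filter on low counts (1.07%). Their median log2 fold change was 0.10, beside 0.00 (0.001) for all tested genes, with 6 values above 0 and 3 below. With TMM factors, in 2 of the 9, Dcn and Bgn, every caffeine heart lay above every vehicle heart, as in 7.11% of all tested genes. In 0 of the 9 did every caffeine heart lie below, as in 7.12% of all tested genes.

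The class I genes, Dcn, Bgn and Aspn, had values above 1-fold in caffeine hearts. Dcn was at 570, 581 and 505 CPM with vehicle and at 767, 633 and 608 CPM with caffeine. All caffeine hearts were above all vehicle hearts, by the smallest margin between caffeine replicate 3 and vehicle replicate 2, and caffeine replicate 1 was the highest. The log2 fold change was 0.28 (standard error 0.10, 95% interval 0.05 to 0.51), with adjusted p = 0.446 in edgeR's test over all genes.
Bgn was at 220, 241 and 242 CPM with vehicle and at 253, 308 and 289 CPM with caffeine. Its groups did not overlap either with TMM factors, and here caffeine replicate 1 was the lowest of its group. The log2 fold change was 0.27 (standard error 0.09, 95% interval 0.07 to 0.48, edgeR adjusted p = 0.396). Relative to library size only, caffeine replicate 1 lay below vehicle replicates 2 and 3, and the log2 fold change was 0.19 (standard error 0.11).
Aspn was at 36.0, 38.1 and 43.6 CPM with vehicle and at 39.3, 62.2 and 46.1 CPM with caffeine. The groups overlapped, and caffeine replicate 2 stood above the rest. Its log2 fold change was 0.33 (standard error 0.15, 95% interval −0.01 to 0.67, edgeR adjusted p = 0.581), and 0.13 without caffeine replicate 2.

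The class II genes Lum, Prelp, Fmod and Omd spanned the range between no visible difference and a small one. Lum was at 85.5, 102 and 94.4 CPM with vehicle and at 115, 101 and 120 CPM with caffeine. Only caffeine replicate 2 reached into the range of the vehicle hearts. The log2 fold change was 0.26 (standard error 0.10, 95% interval 0.04 to 0.48, edgeR adjusted p = 0.481).
Prelp was at 43.7, 51.7 and 46.5 CPM with vehicle and at 47.2, 56.6 and 48.1 CPM with caffeine, so that the groups overlapped. Its log2 fold change was 0.10 (95% interval −0.14 to 0.34), which leaves out a change of 1.5-fold in either direction.
For Fmod, at 1.47, 1.89 and 1.82 CPM with vehicle and 1.82, 0.90 and 1.88 CPM with caffeine, the interval ran from −0.95 to 0.58. Omd, which osteoblasts are known to secrete, was at 1.17, 1.14 and 1.42 CPM with vehicle and 1.54, 1.81 and 0.59 CPM with caffeine, and its interval ran from −0.83 to 0.98. Both intervals include a fall of 1.5-fold, and that of Omd also a rise of 1.5-fold, so no lack of a difference is read from them.

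Ogn, of class III, and Podn, of class V, were the SLRPs with values below 1-fold beside Fmod. Ogn was at 115, 124 and 137 CPM with vehicle and at 102, 132 and 104 CPM with caffeine. Caffeine replicates 1 and 3 lay below the vehicle hearts, and caffeine replicate 2 lay among them. The log2 fold change was −0.15 (standard error 0.12, 95% interval −0.40 to 0.10, edgeR adjusted p = 0.775).
Podn was at 7.62, 12.1 and 7.29 CPM with vehicle and at 6.58, 9.14 and 6.68 CPM with caffeine, and replicate 2 was the highest of each group. Its log2 fold change was −0.27 (standard error 0.23, 95% interval −0.78 to 0.24, edgeR adjusted p = 0.805), and 0.01 without vehicle replicate 2.

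**Figure D2:**
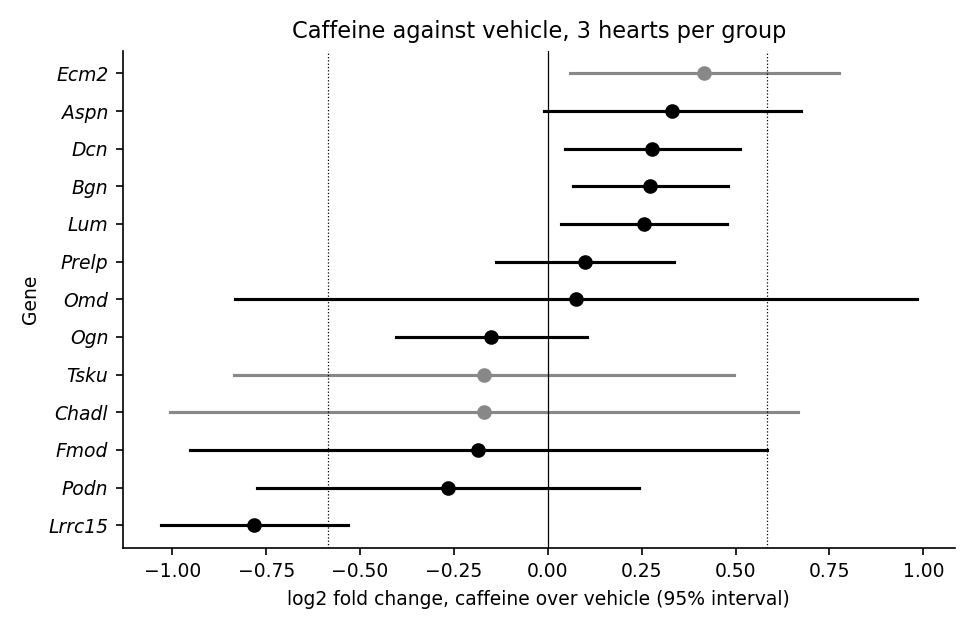
log2 fold change of caffeine over vehicle with its 95% interval for the 10 members (black) and the 3 other SLRP genes that passed the filter (grey). Dotted lines mark a 1.5-fold change. Lrrc15, at −0.78, was chosen for being called past such a change, so its place outside the lines was fixed in advance. Dcn, Bgn, Lum and Ecm2 have intervals above 0 before adjustment.

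Since levels of an extracellular matrix family can move together, the SLRP transcripts were also summed. The sum of the 9 SLRP levels was 244, 263 and 252 CPM per kb in the vehicle hearts and 292, 297 and 277 CPM per kb in the caffeine hearts. The groups did not overlap, and among single tested genes 7.11% had every caffeine heart above. The TMM factors were 0.978 to 1.072 with vehicle and 0.94 to 1.004 with caffeine. Without them the margin almost closes, between vehicle replicate 2 and caffeine replicate 1, so the separation depends on the scaling. No test was made of the sum. The means were 253 ± 9.93 and 289 ± 10.7 CPM per kb (SD, n = 3). Dcn made up 37.4% ± 2.95 of the sum with vehicle and 39.7% ± 4.57 with caffeine. The share of Ogn was 18.4%, 18.3% and 21.2% with vehicle and 13.7%, 17.3% and 14.6% with caffeine. It was the SLRP whose share was lower in every caffeine heart, by a narrow margin, and the shares of the other 8 overlapped. Among single tested genes 14.2% had groups that did not overlap in either direction, so nothing particular to Ogn is read from this. The level of Ogn itself overlapped, and its share also depends on the other SLRPs in the sum. Fibroblast markers stood beside the sum: the 12 genes of that list, none at 0 in every heart, summed to between 1350 and 1650 CPM with vehicle and between 1700 and 2050 CPM with caffeine. Gsn (gelsolin), which many cell types express, was the most abundant of them, at 868 to 1050 CPM with vehicle and 990 to 1360 CPM with caffeine, and its own groups overlapped. Without Gsn, a choice made after seeing the data, the sum of the other 11 also overlapped, at 477 to 606 CPM with vehicle and 593 to 706 CPM with caffeine. Relative to library size only, the sum of all 12 overlapped too, as vehicle replicate 2 lay above caffeine replicate 3. Of these 12 genes 0 were called, 11 had values above 1-fold, and the median log2 fold change was 0.24, beside 0.001 for all tested genes. Their part in the SLRP levels was not tested.

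**Figure D3:**
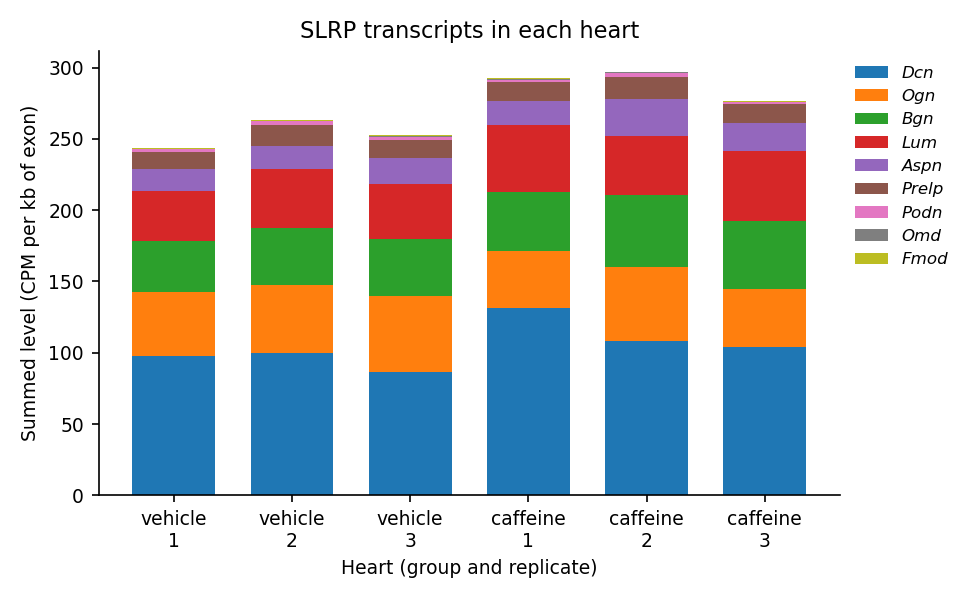
Summed level of the 9 SLRP transcripts in each heart, stacked by gene, in CPM per kilobase of exon. The vehicle hearts reach 244 to 263 and the caffeine hearts 277 to 297, with Dcn the largest part in every heart.

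Ratios of genes within a heart do not depend on how libraries are scaled. The level of Lrrc15 per kb was 7.02%, 7.97% and 7.99% of that of Dcn in the vehicle hearts and 3.25%, 4.16% and 3.69% in the caffeine hearts. All caffeine ratios were below all vehicle ratios, and the mean log2 ratio changed by −1.06 from vehicle to caffeine. Against Prelp the vehicle ratios were the most even, 55.3% ± 1.56, and with caffeine they were 30.1% ± 2.24 (SD, n = 3). In 7 of the 9 ratios of Lrrc15 to an SLRP every caffeine heart was below every vehicle heart. Nothing particular to the SLRPs is read from this, since Lrrc15 was chosen for being lower, and its ratio was lower in every caffeine heart against 85.7% of the 13080 other tested genes with a count in every heart. The ratios to Fmod and Omd, which have few reads, overlapped.
Among the SLRPs themselves 7 of 36 pairs had ratios that did not overlap between the groups, beside 14% of all pairs of tested genes with a count in every heart, and Ogn and Bgn were each in 3 of these 7. Aspn and Ogn lie in the chromosome 13 cluster with Omd between them, and the ratio of Aspn to Ogn was 34.2%, 33.6% and 34.6% in the vehicle hearts, a narrow range. In the caffeine hearts it was 41.8%, 51.4% and 48.4%, all above. The adjacent genes Lum and Dcn on chromosome 10 had overlapping ratios, 40.7% ± 4.53 with vehicle and 40.3% ± 6.0 with caffeine. The Aspn and Ogn pair was singled out after its values were seen, and no test was made of it.

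**Figure D4:**
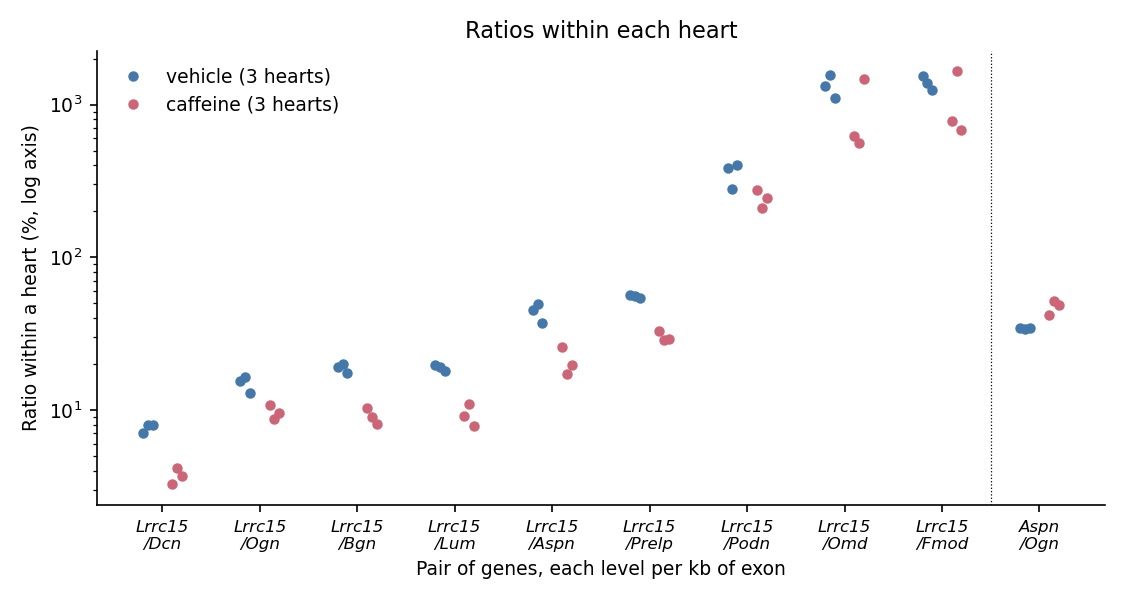
Ratio of the level of Lrrc15 to that of each SLRP within the same heart, in percent on a log axis, with the ratio of Aspn to Ogn at the right. The caffeine hearts lie below the vehicle hearts in all ratios of Lrrc15 other than those to Omd and Fmod, and above them (41.8% to 51.4% against 33.6% to 34.6%) for Aspn to Ogn.

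Single hearts deviated from their group in different members. In vehicle replicate 1, 8 of the 9 SLRPs were below the mean of the vehicle hearts, with a median deviation of −0.12 on the log2 scale. In caffeine replicate 2, 6 of 9 were above the mean of their group, with a median deviation of 0.16. The median deviation of all tested genes was at most 0.005 in every heart. The largest single deviations were those of Omd in caffeine replicates 3 (−0.82) and 2 (0.51) and of Fmod in caffeine replicate 2 (−0.59), the genes with the fewest reads.

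The genes whose pattern over the 6 hearts was most like that of Lrrc15 were found by the root mean square difference of centred log2 CPM. They were Mpped2 (0.09), Cntfr (0.09), Usp42 (0.09), Egflam (0.12) and Osgin1 (0.12), and 0 of these 5 were called. Centring was on the mean of all 6 hearts, so the measure includes the group difference for which Lrrc15 was chosen. Genes close to Lrrc15 are therefore lower with caffeine by construction, and the ranks of the members partly restate their fold changes. Mpped2 encodes a metallophosphoesterase, and its level was 21.4 ± 2.08 CPM with vehicle and 13.4 ± 0.78 CPM with caffeine (SD, n = 3). Cntfr, a receptor subunit for ciliary neurotrophic factor, was at 6.12 ± 0.31 and 3.84 ± 0.48 CPM. Egflam encodes pikachurin, a secreted matrix protein with laminin G domains, and was at 9.95 ± 1.56 and 5.95 ± 1.10 CPM. The member most like Lrrc15 was Podn, with a difference of 0.33 and rank 1382 among the tested genes, followed by Ogn (0.34), while Dcn (0.54) ranked 10549.

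Other SLRP genes, Ecm2 aside, were low in these ventricles. Of 9 further SLRP genes 3 passed the filter, 0 were called, and 1 (Ecm2) had an unadjusted p below 0.05. Epyc and Kera, known from cartilage and cornea, had 0 reads in all 6 hearts, which allows up to 0.286 to 0.394 CPM in a heart by 3 counts of its total, for counting error only. Ecm2, next to Aspn on chromosome 13, was at 13.1, 17.0 and 17.9 CPM with vehicle and at 18.1, 25.2 and 20.8 CPM with caffeine. The groups were separate by a narrow margin, with a log2 fold change of 0.42 (standard error 0.16, edgeR adjusted p = 0.478). Without TMM factors they overlapped, as caffeine replicate 1 lay below vehicle replicates 2 and 3. The lowest fold change of the list was that of Chadl, −0.17 (edgeR adjusted p = 0.946).

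The genes that make, modify and cut the partners of SLRPs were then counted over lists. With the quasi-likelihood fit of edgeR 0 of the 215 tested genes of 22 lists were called, and 20 (9.30%) had an unadjusted p below 0.05, against 8.82% of all genes. The exact and likelihood ratio tests each called 3 of them, Col3a1, Postn and Adgre1, and DESeq2 called Col3a1 alone.
Of the collagens that form or coat the fibrils, 10 of 14 were tested, 9 had values above 1-fold and the median log2 fold change was 0.33. Col3a1, which encodes type III collagen, was at 103, 136 and 83.9 CPM with vehicle and at 180, 148 and 208 CPM with caffeine. Its groups did not overlap, and its log2 fold change was 0.73 (standard error 0.17, edgeR adjusted p = 0.189). Col14a1, a fibril-associated collagen that decorin can bind, had a log2 fold change of 0.66 (edgeR adjusted p = 0.332), and the lowest value was that of Col6a3, −0.08.
Of the genes for collagen processing and cross-linking 20 of 22 were tested, with a median of 0.12. P4ha1, a prolyl hydroxylase subunit, was at 0.43 (edgeR adjusted p = 0.287), Loxl4, a lysyl oxidase, at 0.60 (0.703) and Adamts3, a procollagen protease, at −0.33 (0.760).
The enzymes that build the sugar chains had list medians near that of all tested genes (0.001). No test was made of these lists, so no lack of a shift is read from them. The chondroitin and dermatan sulfate list (23 of 26 tested) had a median of 0.01, between Ust at −0.33 and Chst12 at 0.50, both sulfotransferases. The keratan sulfate list (5 of 7 tested) had a median of −0.01, between B3gnt2 at −0.33 and Chst2 at 0.47.
Of 20 matrix proteases and inhibitors 12 were tested, with a median of 0.13. Ctsk, the collagen-cutting cathepsin K, had the highest log2 fold change (1.41, standard error 0.50, edgeR adjusted p = 0.413), at 0.405 to 2.15 CPM with vehicle and 2.24 to 3.50 CPM with caffeine. Timp3, a matrix-bound inhibitor of metalloproteases, had the lowest (−0.23, edgeR adjusted p = 0.439).

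No gene was called among the receptors and signals around Lrrc15 and the SLRPs. Of 16 receptors that bind SLRPs 15 were tested, with a median log2 fold change of 0.03. Tlr4, an innate immune receptor for free biglycan, was at 23.2, 23.8 and 20.9 CPM with vehicle and 26.2, 32.4 and 30.0 CPM with caffeine, a log2 fold change of 0.39 (standard error 0.12, edgeR adjusted p = 0.324). Tlr2, the related receptor, was at 0.51 (edgeR adjusted p = 0.611), and the lowest was Kdr, a VEGF receptor, at −0.19.
The list of TGF-β ligands, receptors and targets, all 18 tested, had a median of −0.01. Tgfbr3, the co-receptor betaglycan, which is itself a proteoglycan, was at 83.0, 74.1 and 73.5 CPM with vehicle and at 63.8, 57.8 and 61.2 CPM with caffeine. Its log2 fold change was −0.34 (standard error 0.09, edgeR adjusted p = 0.269), and the highest of the list was that of Ltbp2, a latent TGF-β binding protein, at 0.44 (0.832).
Of 23 proteoglycans outside the SLRP family 15 were tested, with a median of −0.04. Spock2 (testican 2) was at 34.3, 36.7 and 32.5 CPM with vehicle and at 25.6, 23.6 and 22.6 CPM with caffeine, with separate groups and a log2 fold change of −0.53 (standard error 0.11, edgeR adjusted p = 0.125). Vcan (versican) had the highest value, 0.48 (edgeR adjusted p = 0.407).
Of 65 other genes named Lrrc 36 were tested, 0 were called, 2 had an unadjusted p below 0.05 and the median was 0.01, with Lrrc25 highest (0.49) and Lrrc52 lowest (−0.33).

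**Figure D5:**
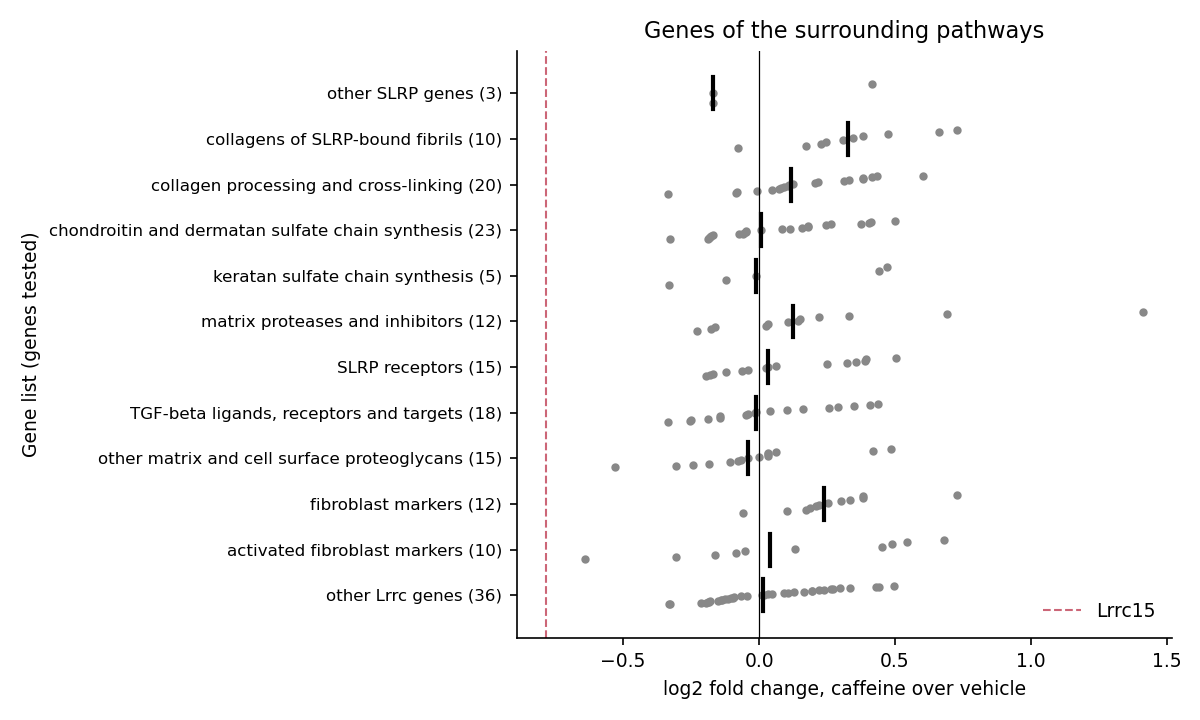
log2 fold change of caffeine over vehicle of each tested gene of the lists (points) in the 10 pathway lists and the 2 fibroblast lists, with the median of each list as a bar and Lrrc15 as a dashed line at −0.78. The bar of the collagens lies at 0.33 and that of the fibroblast markers at 0.24. Lrrc15 was chosen for being called lower in these same hearts, so its line is no measure for the lists.

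Markers of the activated fibroblast, the cell in which Lrrc15 is best known, had values in both directions. Of 12 such genes 10 were tested, 0 were called, 5 had values above 1-fold and 5 below, and the list summed to between 185 and 227 CPM with vehicle and 203 and 235 CPM with caffeine. Postn (periostin) was at 15.8, 16.6 and 20.0 CPM with vehicle and at 20.6, 30.9 and 32.0 CPM with caffeine, a log2 fold change of 0.68 (standard error 0.17, edgeR adjusted p = 0.228). Meox1, a transcription factor of activated fibroblasts, was at 0.54 (edgeR adjusted p = 0.226) and Col8a1 at 0.49 (0.280), and their groups were separate. Fap, the fibroblast activation protein, was at 1.86, 2.55 and 2.84 CPM with vehicle and at 1.26, 1.24 and 2.11 CPM with caffeine, a log2 fold change of −0.64 (standard error 0.33, edgeR adjusted p = 0.628). In the fibroblast list the values ran from −0.06 (Ddr2) to 0.73 (Col3a1), and 4 of its 12 genes are shared with the lists of collagens and of collagen processing.
Other cell types were checked in the same way, with 0 genes called in any list. The 7 endothelial markers had a median of 0.05, between Emcn (−0.23) and Cldn5 (0.16), and the 7 mural cell markers a median of 0.03, between Cnn1 (−0.48) and Kcnj8 (0.07). Of 8 leukocyte markers 6 were tested, all with values above 1-fold, with a median of 0.28, and the list summed to between 72.9 and 102 CPM with vehicle and 79.1 and 142 CPM with caffeine. Adgre1, which encodes the macrophage marker F4/80, was highest (0.93, edgeR adjusted p = 0.226) and Cd68 lowest (0.05). Of the 9 valve, tendon and cartilage markers, among tissues rich in Fmod and Aspn, 3 were tested and the list summed to between 17.0 and 27.0 CPM with vehicle and 21.5 and 29.1 CPM with caffeine, with Sox9 at 0.56 and Cnmd at −0.21. Scx was the most abundant gene of this list, at 16.3 ± 2.08 CPM with vehicle and 16.9 ± 3.56 CPM with caffeine (SD, n = 3), a log2 fold change of 0.05. Cnmd was uneven, with 0, 25 and 39 reads in vehicle replicates 1 to 3 and 8, 26 and 11 reads in caffeine replicates 1 to 3. Tnmd, Hapln1 and Acan were below 0.15 CPM in every heart. The epicardial list (3 of 6 tested) lay between Krt19 (−0.28) and Upk3b (0.19), and the erythroid list between Hbb-bt (−0.22) and Hbb-bs (0.28). Of the 9 cardiomyocyte markers 8 had values below 1-fold, from Myh6 (−0.31) up, and Actc1 (0.15) was above, with a median of −0.065. The atrial list lay between Myl4 (−0.26) and Dkk3 (0.20). None of the 5 adipocyte markers passed the filter, and their sum was 0.709 to 2.05 CPM with vehicle and 0.113 to 0.469 CPM with caffeine, lower in every caffeine heart. The part of these cell types in the values of Lrrc15 and the SLRPs was not tested.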

How the data were processed

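Poly(A) RNA of 6 left ventricles (3 vehicle, 3 caffeine, grouped by the sample labels) was sequenced as single-end reads in 1 run. Per the labels and methods, the authors ran FastQC, used TopHat2 to map reads to mm10 (GRCm38), and ran HTSeq to count reads in genes. The methods name Ensembl release 79 as the annotation. The tool versions and the strand setting are not given in the sources used here. The deposited values are these raw counts for 43629 genes, neither normalized nor pooled.

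Genes were filtered with filterByExpr (minimum count 10, minimum total 15), which left 13092 genes and all 10 members. They were scaled by TMM (factors 0.94 to 1.072) then fitted with the quasi-likelihood functions of edgeR 4.0.16 (R 4.3.3), with treatment as the term and p-values adjusted over all tested genes by the Benjamini-Hochberg method. Genes with adjusted p below 0.05 and a fold above 1.5 were called, the thresholds of the study. Standard errors are the log2 fold change over the square root of F. The common dispersion across genes, 0.0145, corresponds to 12.1% variation between hearts. Levels per kilobase use the union of exons in GENCODE release 21 of the mouse series, which is not the annotation used for counting. The scripts were tested on simulated data. Replicates of a group differed by a chi-square per degree of freedom of 5.37 to 14.01, and each was counted as a sample.

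The members and gene lists were chosen with earlier results of these data known. All members are named. In a list, called genes were to be named, else the highest and lowest fold change and genes with an unadjusted p below 0.01, with 5 genes by likeness to Lrrc15. Alternatives were other tests (DESeq2 1.42.0, limma 3.58.1), scalings, filters, a replicate block and each heart left out. The result of 1 marker list is not reported here.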

Additional observations from a re-analysis of the deposited data

How the results depend on the processing

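The log2 fold change of Lrrc15 was between −0.87 and −0.71 under all 16 alternative fits and, since its call chose the group, is given as a description. With each heart left out in turn it was between −0.84 and −0.71, and the number of members called was between 0 and 1. No SLRP was called under any of the 16. The direction turned in 3 genes of low or uneven counts. Omd was at −0.051 with limma-voom and −0.013 with library size only, and between −0.26 and 0.44 with a heart left out (−0.04 without caffeine replicate 1, −0.26 without caffeine replicate 2). Fmod was between −0.37 and 0.10 (0.10 without caffeine replicate 2) and Podn between −0.44 and 0.01 (0.007 without vehicle replicate 2). Library size alone moved the median of all genes to −0.08 and that of the SLRPs to 0.01.

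Counts over all genes, 11 higher and 3 lower, depended on the test: 61 and 33 with the exact test, 63 and 38 with the likelihood ratio test, 39 and 28 with DESeq2, and 145 and 95 with no filter on low counts. With library size only, 12 were higher and 15 lower. Without 1 heart they were between 4 and 17 higher and between 0 and 13 lower (4 and 0 without vehicle replicate 2, and also without caffeine replicate 3). Of the list genes 3 were called by the exact test, 3 by the likelihood ratio test, 1 by DESeq2, 4 with no filter (Ctsk the added one) and 0 with any heart left out. The cause of these differences was not tested.

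With the replicate number as a block, 29 genes were higher and 11 lower, Lrrc15 was at −0.78, and no call of a member changed. Deviations of hearts with the same number correlated between −0.038 and 0.045 across genes, and those with different numbers between −0.083 and 0.12. Whether hearts with the same number share a batch or a litter cannot be told from these values. Depth limits Fmod and Omd, with at most 20 reads per heart, which could not be fitted when at least 10 counts were required in every heart.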
